A study of Mus musculus with 6 samples.

Results

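The 10 genes described here are the core of the mammalian circadian clock and its first output, *Arntl*, *Clock*, *Per1*, *Per2*, *Per3*, *Cry1*, *Cry2*, *Nr1d1*, *Nr1d2* and *Dbp*. They were chosen by name, and their rows were found in a table of 26579 mouse genes through the Ensembl identifiers of the GENCODE M21 annotation of GRCm38. All 10 had a row, and all 10 passed the filter on low counts. RNA was taken from dorsal neck skin of 6 female mice at 33 days of age, 3 YAP2-5SA-∆C transgenic and 3 wild type littermates. The YAP2-5SA-∆C mice carry a mildly active mutant of Yes-associated protein (YAP), a transcriptional cofactor of the Hippo pathway, in basal Keratin5/14-positive keratinocytes, while the libraries were made from whole skin. The hour of the day at which skin was collected is not given in the sources used here.

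The clock is a feedback loop that runs in nearly every cell. The proteins of *Arntl* (also called Bmal1) and *Clock* bind as a pair to E-box elements and switch on the *Per*, *Cry*, *Nr1d* and *Dbp* genes. PER and CRY proteins then block that pair, and the REV-ERB proteins of *Nr1d1* and *Nr1d2* repress *Arntl* through ROR response elements (RORE). DBP binds D-box elements in further clock-controlled genes. In consequence *Arntl* and most of the E-box genes peak at nearly opposite times of day, while *Cry1* peaks later than the other E-box genes and the *Clock* transcript cycles weakly in most tissues. In skin the clock is known to time keratinocyte division and DNA repair.

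The elements can be seen in the promoters of several of these genes. RefSeq promoter windows of GRCm38.p6, which hold 250 bases before and 50 after a transcription start, were at hand for 9 of the 10 genes in 13 windows, and *Per2* was without one. Both strands were searched for the E-box CACGTG, for the related E-prime box CACGTT, for the D-box TTATGTAA or TTACGTAA, and for the core of the RORE, TAGGTCA or TGGGTCA. No word searched for contains another, and the E-box reads the same on both strands. The E-box was present in 7.15% of 32851 mouse windows, the E-prime box in 4.68%, the D-box in 1.06% and the RORE core in 6.45%. Of the 13 clock windows, 2 held an E-box, 3 an E-prime box (in *Cry1*, *Cry2* and *Nr1d1*), 1 a D-box and 1 a RORE core. The 4 windows below were selected to show 1 example of each element, with the matches in capitals; the E-prime box of *Cry1* lies on the other strand and so reads AACGTG. A match describes the letters of the window and does not show a bound site.
Per1 (E-box, chr11:69098699-69098998, plus strand): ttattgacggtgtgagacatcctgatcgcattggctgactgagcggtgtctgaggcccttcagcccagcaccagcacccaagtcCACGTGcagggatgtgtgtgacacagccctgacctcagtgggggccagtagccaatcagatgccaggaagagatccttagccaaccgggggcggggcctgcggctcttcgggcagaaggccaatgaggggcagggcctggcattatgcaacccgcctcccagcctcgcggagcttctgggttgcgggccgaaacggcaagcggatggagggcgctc
Cry1 (E-prime box then E-box, chr10:85185005-85185304, minus strand): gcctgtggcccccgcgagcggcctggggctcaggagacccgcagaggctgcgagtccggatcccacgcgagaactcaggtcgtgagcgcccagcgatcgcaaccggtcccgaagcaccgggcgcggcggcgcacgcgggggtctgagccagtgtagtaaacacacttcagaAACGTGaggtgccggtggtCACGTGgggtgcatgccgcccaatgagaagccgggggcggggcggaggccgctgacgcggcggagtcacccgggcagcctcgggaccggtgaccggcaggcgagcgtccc
Per3 (D-box at 2 places, chr4:151044616-151044915, minus strand): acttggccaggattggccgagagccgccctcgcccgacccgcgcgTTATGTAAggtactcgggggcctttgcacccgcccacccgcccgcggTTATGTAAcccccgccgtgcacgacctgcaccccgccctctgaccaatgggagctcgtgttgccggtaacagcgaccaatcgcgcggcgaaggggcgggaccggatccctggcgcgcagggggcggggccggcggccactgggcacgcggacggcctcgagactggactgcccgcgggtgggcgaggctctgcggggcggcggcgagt
Arntl (RORE core, chr7:113207261-113207560, plus strand): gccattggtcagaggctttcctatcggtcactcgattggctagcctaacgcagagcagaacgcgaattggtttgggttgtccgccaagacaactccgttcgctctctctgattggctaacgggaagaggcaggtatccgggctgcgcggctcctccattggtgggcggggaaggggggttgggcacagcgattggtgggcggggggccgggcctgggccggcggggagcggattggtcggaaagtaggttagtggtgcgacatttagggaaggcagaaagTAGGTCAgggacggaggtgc

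Total counts ranged from 11225705 to 19505036 per library, and mitochondrial genes took 19.31% to 23.065% of them. The 10 clock genes were well covered, from 135 counts for *Cry1* in wild type replicate 3 to 2021 counts for *Clock* in YAP2-5SA-∆C replicate 2. Levels are given as CPM, each gene's counts relative to the library total after TMM scaling. *Yap1* itself was at 142, 125 and 126 CPM in the wild type mice and at 136, 144 and 130 CPM in the transgenic mice. The sources used here do not say whether transgene reads were counted on that gene. Across 15102 genes tested with edgeR's quasi-likelihood test, 288 differed between genotypes at a false discovery rate (FDR, the Benjamini-Hochberg adjusted p) under 0.05, which is 1.91%. Hair markers stood apart in YAP2-5SA-∆C replicate 2, so log2 fold changes without that mouse are given beside those it moved by over 1.5 times.

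None of the 10 clock genes passed the test between wild type and YAP2-5SA-∆C skin in edgeR's quasi-likelihood test. The count called was 0 of 10, beside 1.91% of all tested genes, and 1 of 10 had an unadjusted p under 0.05, beside 26.3% of all tested genes. With other tools, the likelihood-ratio test of edgeR called 0 (10.4% of all genes), limma voom called 0 (1.65%) and DESeq2 called 1, *Clock* (10.7% of the 14807 genes that had an adjusted p). CPM values did not overlap between genotypes for 2 of the 10, *Clock* and *Per1*, beside 33.8% of all tested genes. Log2 fold changes (YAP2-5SA-∆C minus wild type) were positive for 7 genes and negative for 3, between -0.58 and 0.31, with a median of 0.07 beside -0.01 over all tested genes. In whole skin, a change in the number of cells of a type and a change in RNA per cell cannot be told apart.

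**Figure D1:**
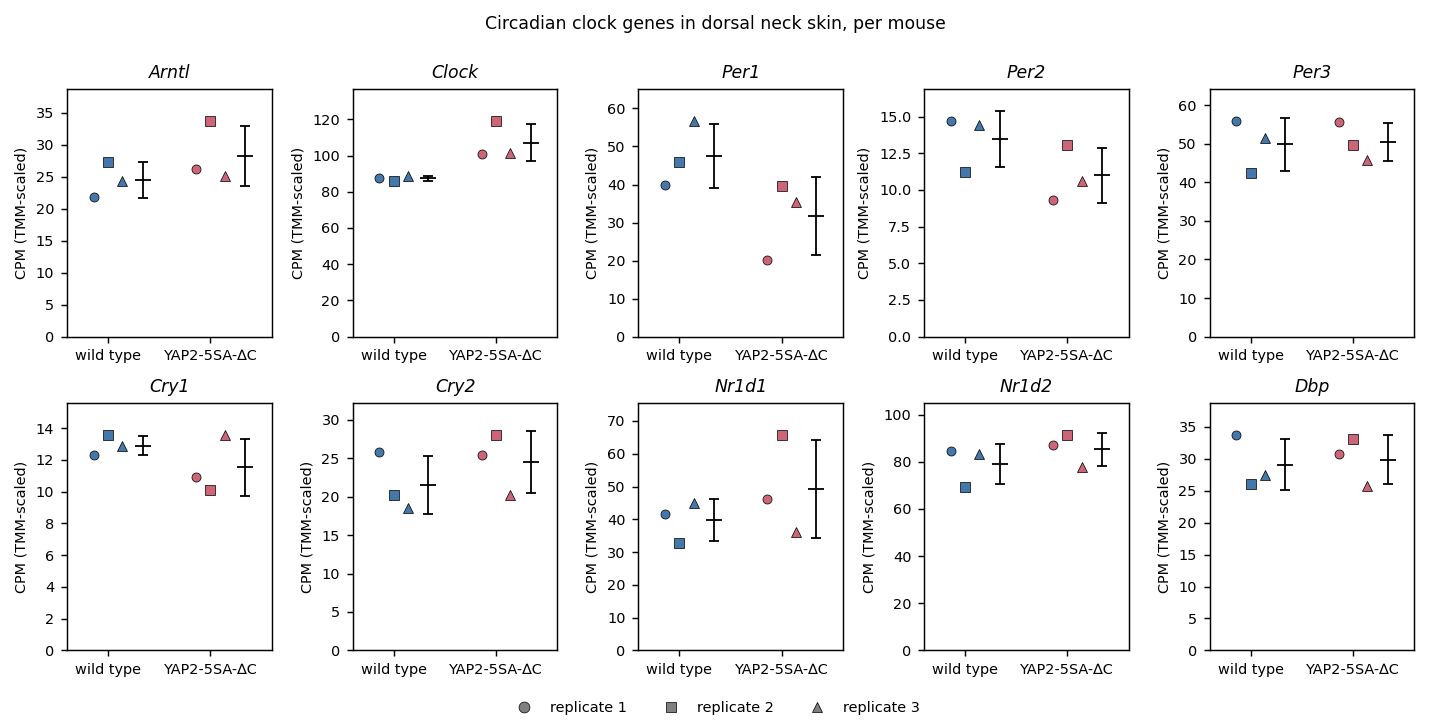
TMM-scaled CPM of each of the 10 clock genes (y axis, from 0) in the 3 wild type (blue) and 3 YAP2-5SA-∆C (red) mice, with marker shapes for the replicate number and the mean ± SD beside the points. The genotypes are apart for *Clock* (all red points higher) and *Per1* (all red points lower), and they overlap in the other 8 panels.

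Of the activators, *Clock* was closest to the threshold. *Clock* (ENSMUSG00000029238, chromosome 5, 76209868 to 76304792, minus strand) encodes the basic helix-loop-helix partner of BMAL1. Its level was 87.3, 86.0 and 88.9 CPM in wild type replicates 1 to 3 and 101, 119 and 102 CPM in YAP2-5SA-∆C replicates 1 to 3. The 3 wild type mice lay within a narrow range, and each transgenic mouse was above all of them. The means were 87.4 ± 1.44 and 107 ± 10.3 CPM (SD, n = 3 each), a difference of 22.5%. The log2 fold change of 0.29 (standard error 0.08, 95% interval 0.11 to 0.47) had a quasi-likelihood FDR of 0.0769 (unadjusted p = 0.00669). The adjusted p of *Clock* was 0.224 in the likelihood-ratio test, 0.0797 in voom and 0.0261 in DESeq2, and from 0.0666 to 0.222 in the quasi-likelihood test when each mouse was left out in turn. Without YAP2-5SA-∆C replicate 2 the log2 fold change was 0.23.

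*Arntl* (ENSMUSG00000055116, chromosome 7, 113207465 to 113314126, plus strand) encodes BMAL1, the partner of CLOCK. Wild type replicates 1 to 3 had 21.8, 27.4 and 24.3 CPM, and YAP2-5SA-∆C replicates 1 to 3 had 26.2, 33.7 and 25.0 CPM. Only YAP2-5SA-∆C replicate 2 was above the highest wild type mouse. The means of 24.5 ± 2.81 and 28.3 ± 4.68 CPM (SD, n = 3 each) gave a log2 fold change of 0.21 (standard error 0.14, 95% interval -0.12 to 0.54) and a quasi-likelihood FDR of 0.372. Leaving that mouse out gave a log2 fold change of 0.08, and leaving out wild type replicate 1 gave 0.14.

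Among the repressors that close the loop, the PER and CRY genes, *Per1* had the largest difference of all 10 genes. *Per1* (ENSMUSG00000020893, chromosome 11, 69095217 to 69109960, plus strand) is known to respond quickly to light in the brain and to glucocorticoids in peripheral tissue. It was at 40.0, 45.8 and 56.6 CPM in the wild type mice and at 20.1, 39.7 and 35.5 CPM in the YAP2-5SA-∆C mice, in replicate order. YAP2-5SA-∆C replicate 1 was far below the others, and YAP2-5SA-∆C replicate 2 was just under the lowest wild type mouse. The log2 fold change was -0.58 (standard error 0.25, 95% interval -1.17 to 0.02), with an unadjusted p of 0.0551 and a quasi-likelihood FDR of 0.199. Over the fits that left out 1 mouse it ran from -0.75 to -0.32 (YAP2-5SA-∆C replicates 2 and 1 left out, respectively), with quasi-likelihood FDR values from 0.143 to 0.437.

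*Per2* (ENSMUSG00000055866, chromosome 1, 91415982 to 91459324, minus strand), a paralog with a more central part in the oscillator, had 14.7, 11.3 and 14.5 CPM in wild type and 9.34, 13.1 and 10.6 CPM in YAP2-5SA-∆C replicates 1 to 3. It was below all wild type mice in 2 of 3 transgenic mice, and wild type replicate 2 was low within its own genotype. The log2 fold change of -0.29 (standard error 0.16, 95% interval -0.67 to 0.09) had a quasi-likelihood FDR of 0.295. Leaving out YAP2-5SA-∆C replicate 1 gave -0.16. *Per3* (ENSMUSG00000028957, chromosome 4, 151003652 to 151044665, minus strand), which is dispensable for the rhythm itself, was at 55.8, 42.4 and 51.6 CPM in wild type and 55.7, 49.7 and 45.9 CPM in YAP2-5SA-∆C skin. All 3 transgenic values lay inside the wild type range. Its log2 fold change was 0.01 (standard error 0.12, 95% interval -0.27 to 0.30; quasi-likelihood FDR 0.949), and its sign turned on leaving out replicate 2 of wild type (-0.09) or replicate 1 of YAP2-5SA-∆C (-0.04), while leaving out replicate 2 of YAP2-5SA-∆C gave 0.04.

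The cryptochromes *Cry1* and *Cry2* encode the partners through which PER complexes silence the activators. *Cry1* (ENSMUSG00000020038, chromosome 10, 85131700 to 85185064, minus strand) was at 12.3, 13.6 and 12.8 CPM in wild type and at 10.9, 10.1 and 13.5 CPM in YAP2-5SA-∆C skin. Replicates 1 and 2 of YAP2-5SA-∆C were under the wild type range while replicate 3 was near its top, and the log2 fold change was -0.16 (standard error 0.13, 95% interval -0.46 to 0.13; quasi-likelihood FDR 0.443). Leaving out 1 transgenic mouse gave -0.11 (replicate 1), -0.06 (replicate 2) or -0.29 (replicate 3). *Cry2* (ENSMUSG00000068742, chromosome 2, 92403646 to 92434043, minus strand) had 25.8, 20.2 and 18.6 CPM in wild type and 25.4, 28.0 and 20.2 CPM in YAP2-5SA-∆C skin. Here the genotypes overlapped, with 1 transgenic mouse above all wild type mice, and the log2 fold change was 0.19 (standard error 0.16, 95% interval -0.20 to 0.57; quasi-likelihood FDR 0.501). That of *Cry2* was 0.10 without YAP2-5SA-∆C replicate 2 and, in wild type, 0.10 without replicate 3 and 0.34 without replicate 1.

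The REV-ERB genes differed in how much they varied between mice. *Nr1d1* (ENSMUSG00000020889, chromosome 11, 98767932 to 98775333, minus strand), which encodes the nuclear receptor REV-ERBα, had 41.7, 32.8 and 45.1 CPM in wild type and 46.2, 65.7 and 36.3 CPM in YAP2-5SA-∆C replicates 1 to 3. The highest and the second lowest of the 6 values both came from transgenic mice. Its log2 fold change of 0.31 (standard error 0.22, 95% interval -0.21 to 0.83; quasi-likelihood FDR 0.407) was 0.07 without YAP2-5SA-∆C replicate 2, 0.49 without YAP2-5SA-∆C replicate 3 and 0.19 without wild type replicate 2. *Nr1d2* (ENSMUSG00000021775, chromosome 14, 18204054 to 18239127, minus strand), encoding REV-ERBβ, was steadier, at 84.5, 69.4 and 83.5 CPM in wild type and 87.0, 91.3 and 77.7 CPM in YAP2-5SA-∆C skin. Its log2 fold change was 0.11 (standard error 0.10, 95% interval -0.12 to 0.34; quasi-likelihood FDR 0.515), and between 0.02 (without wild type replicate 2) and 0.17 (without YAP2-5SA-∆C replicate 3) with 1 mouse left out.

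*Dbp* (ENSMUSG00000059824, chromosome 7, 45705088 to 45710203, plus strand), a PAR bZIP factor that carries the rhythm to D-box genes, is among the genes with the widest daily swing in many tissues. In replicate order it was at 33.7, 26.1 and 27.5 CPM in wild type and at 30.8, 33.1 and 25.7 CPM in YAP2-5SA-∆C skin. The ranges of the genotypes largely coincided, and the log2 fold change was 0.04 (standard error 0.13, 95% interval -0.27 to 0.35; quasi-likelihood FDR 0.876). Leaving out replicate 2 of either genotype turned the sign, to -0.04 for the wild type mouse and -0.03 for the transgenic one.

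An FDR over the threshold does not show equal levels, and the 95% intervals set what remained possible with 3 mice per genotype. As folds, these ran from 0.832 to 1.23 for *Per3*, from 0.828 to 1.27 for *Dbp* and from 0.918 to 1.27 for *Nr1d2*. They were wider for *Per1*, from 0.444 to 1.01, and for *Nr1d1*, from 0.864 to 1.78.

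**Figure D2:**
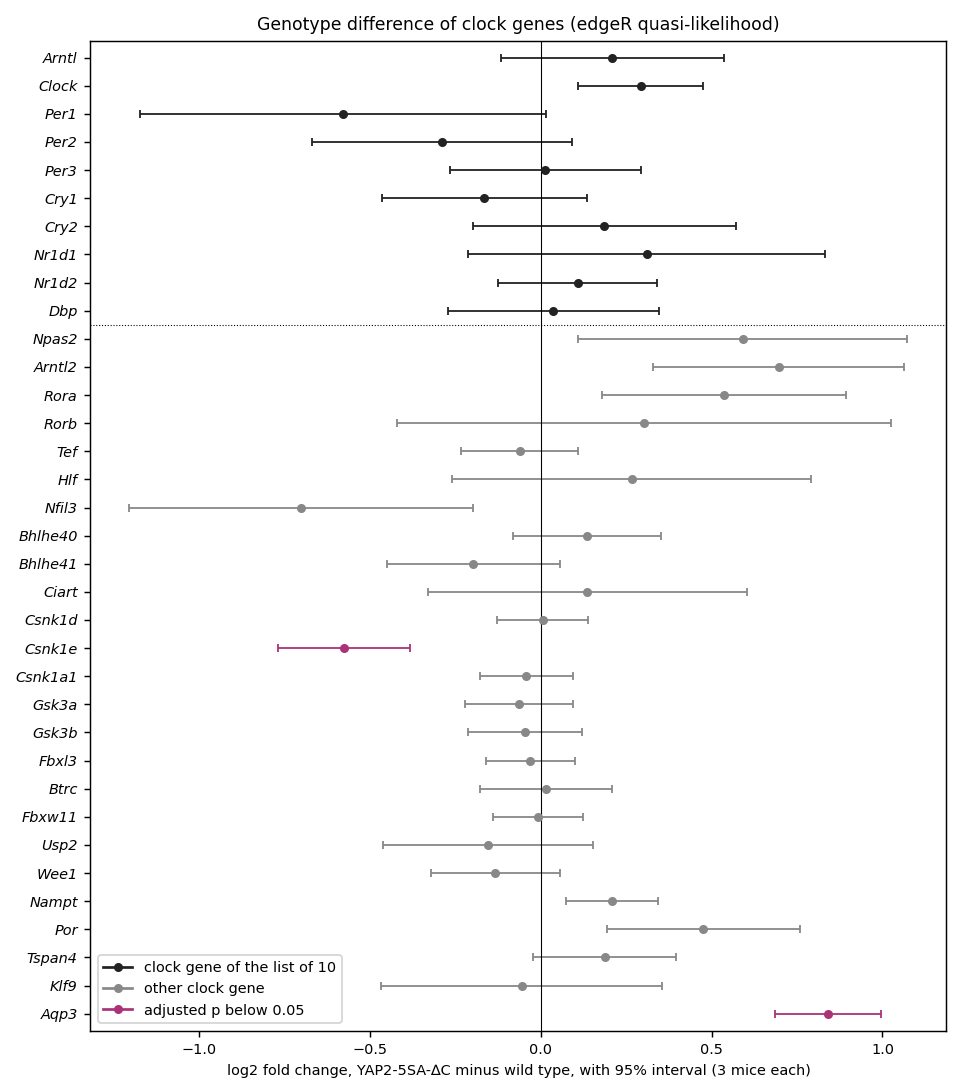
Log2 fold change (x axis, YAP2-5SA-∆C minus wild type) with its 95% interval from edgeR's quasi-likelihood fit, for the 10 clock genes above the dotted line and other listed clock genes below it (y axis). Purple marks an FDR under 0.05, which *Csnk1e* at -0.57 and *Aqp3* at 0.84 reached and none of the 10 did.

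The reads of some clock genes could be shared with a neighbour on the opposite strand, since the strand setting of the counting is not given in the sources used here. *Nr1d1* shares 263 exonic bases (8.55% of its exons) with *Thra*, a thyroid hormone receptor gene, and *Dbp* shares 539 (18.0%) with *Sphk2*, a sphingosine kinase gene. *Thra* was at 59.0, 58.5 and 63.8 CPM in wild type and 60.1, 55.0 and 55.7 CPM in YAP2-5SA-∆C skin. *Sphk2* was at 42.5, 38.5 and 37.1 CPM in wild type and 46.9, 47.5 and 39.7 CPM in YAP2-5SA-∆C skin. Neither neighbour was called, with quasi-likelihood FDR values of 0.442 and 0.258. Whether reads were shared between the genes of each pair was not tested.

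The 10 genes were ordered by their mean level per kilobase of exon in wild type skin, although many neighbours in that order overlapped. On this scale of level, *Nr1d2* was highest at 14.6 ± 1.56 CPM per kilobase (SD, n = 3), followed by *Nr1d1* (13.0 ± 2.07), *Dbp* (9.72 ± 1.35) and *Per1* (8.43 ± 1.5). *Clock* (6.37 ± 0.105) and *Per3* (5.20 ± 0.716) came next, and the lowest levels were those of *Cry1* (3.86 ± 0.186), *Cry2* (3.41 ± 0.604), *Arntl* (3.25 ± 0.373) and *Per2* (2.30 ± 0.328). Neighbouring genes whose wild type ranges did not overlap were *Per1* and *Clock*, *Clock* and *Per3*, *Per3* and *Cry1*, and *Arntl* and *Per2*. The first 4 genes overlapped from each to the next, as did *Cry1*, *Cry2* and *Arntl*. The lengths are of all annotated exons merged, and the order depends on them.

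Mice of one genotype differed more in these genes than in the median gene. Over the 10 genes, the median SD of log2 CPM was 0.20 among wild type mice and 0.22 among transgenic mice, against 0.12 and 0.13 over all tested genes. *Per1* had a higher dispersion (the variance between mice beyond counting error) than 92.1% of tested genes, and *Nr1d1* than 89.4%, while *Clock* was above 41.4%. YAP2-5SA-∆C replicate 2 was the highest of its genotype for 8 of the 10 genes, and YAP2-5SA-∆C replicate 3 was the lowest for 6. In wild type, replicate 1 was the highest for 5 and replicate 2 the lowest for 6.

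**Figure D3:**
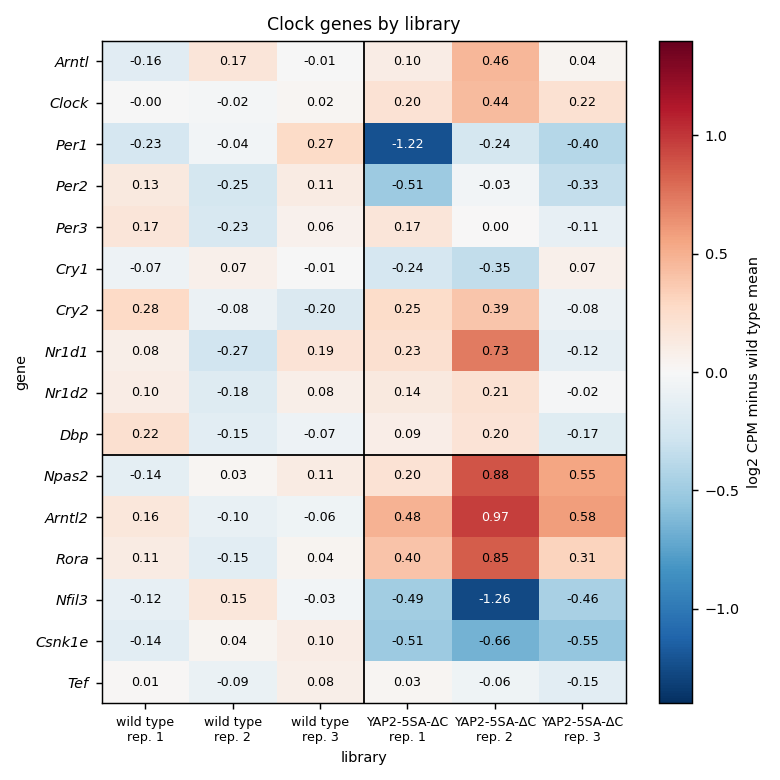
Log2 CPM minus the wild type mean (colour and printed number) for the 10 clock genes and 6 other clock genes (y axis) in each of the 6 libraries (x axis). YAP2-5SA-∆C replicate 1 holds the lowest *Per1* value (-1.22), and YAP2-5SA-∆C replicate 2 holds the highest *Nr1d1* (0.73) and lowest *Nfil3* (-1.26).

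Because *Arntl* and most E-box genes peak at nearly opposite phases, the balance of activators and output genes was described in each mouse as the mean log2 CPM of *Arntl*, *Npas2* and *Clock* minus that of 7 output genes (*Nr1d1*, *Nr1d2*, *Per1*, *Per2*, *Per3*, *Dbp* and *Tef*). The difference was -1.37, -0.97 and -1.26 in wild type replicates 1 to 3 and -0.88, -0.72 and -0.74 in YAP2-5SA-∆C replicates 1 to 3. Every transgenic mouse was above every wild type mouse. The means were -1.20 ± 0.21 and -0.78 ± 0.09 (SD, n = 3 each), a gap of 0.42, and no test was made. Each activator gene had a positive log2 fold change, and *Npas2* was low in level. The output genes did not move together. Log2 fold changes were negative for *Per1* (-0.58) and *Per2* (-0.29), positive for *Nr1d1* and *Nr1d2*, and near 0 for *Per3*, *Dbp* and *Tef*. A single activator and output pair did not separate in the same way. *Arntl* minus *Dbp* was -0.63, 0.07 and -0.18 in wild type and -0.23, 0.02 and -0.04 in YAP2-5SA-∆C skin, and the genotypes overlapped, with a gap of 0.16. Without *Clock*, a choice made after seeing the data, the first gap was 0.45. The hour of collection is not given in the sources used here, and its part in these values was not tested.

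**Figure D4:**
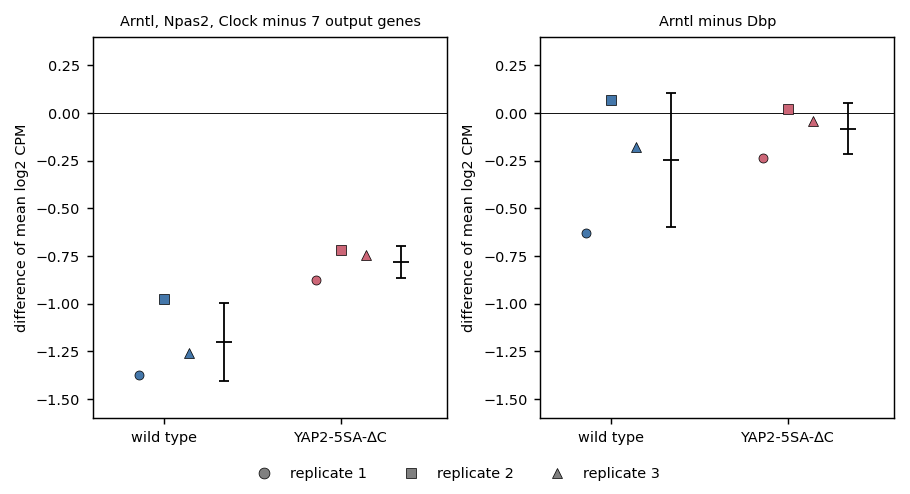
Difference of mean log2 CPM (y axis) between 3 activator genes and 7 output genes (left) and between *Arntl* and *Dbp* (right) in each mouse, with mean ± SD (n = 3). On the left the 3 YAP2-5SA-∆C mice (-0.88 to -0.72) lie above the 3 wild type mice (-1.37 to -0.97), and on the right the genotypes overlap.

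The wider clock network was read from a list of 27 further genes, of which 26 passed the filter and *Fbxl21* did not. The quasi-likelihood test called 1 higher and 1 lower with the transgene, beside 1.91% of all tested genes, and 8 had an unadjusted p under 0.05, beside 26.3%. Their median log2 fold change was -0.0012, and 11 of the 26 did not overlap between genotypes, beside 33.8%. Without the rhythmic output genes of the list, *Aqp3* among them, 6 of 20 did not overlap. Of these 20, 0 were called higher and 1 lower. *Csnk1e*, encoding casein kinase 1 epsilon, which phosphorylates PER proteins and so sets their lifetime, was at 114, 130 and 136 CPM in wild type and 89.0, 79.8 and 86.6 CPM in YAP2-5SA-∆C skin. It fell by 0.57 on the log2 scale (standard error 0.08; quasi-likelihood FDR 0.0394). *Aqp3*, a water and glycerol channel of the epidermis whose transcript is rhythmic in keratinocytes, was at 81.3, 77.6 and 74.0 CPM in wild type and 141, 131 and 145 CPM in YAP2-5SA-∆C skin. It rose by 0.84 on the log2 scale (standard error 0.07; quasi-likelihood FDR 0.0101). The genotypes did not overlap for either gene. Each call was lost on leaving out replicate 2 or 3 of wild type or replicate 3 of YAP2-5SA-∆C, and that of *Csnk1e* also on leaving out replicate 1 of YAP2-5SA-∆C. Over the 6 fits that left out 1 mouse each, the log2 fold change of *Csnk1e* ran from -0.64 to -0.51 (highest quasi-likelihood FDR 0.178) and that of *Aqp3* from 0.81 to 0.90 (0.100).

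Paralogs of the activators and a ROR gene had the highest log2 fold changes after *Aqp3*, without passing the quasi-likelihood threshold. *Arntl2*, which encodes the BMAL1 paralog BMAL2, had 9.24, 7.69 and 7.90 CPM in wild type and 11.6, 16.3 and 12.4 CPM in YAP2-5SA-∆C skin (log2 fold change 0.70, quasi-likelihood FDR 0.0616). *Npas2*, which can stand in for CLOCK, was low, at 2.69, 3.04 and 3.23 CPM against 3.45, 5.59 and 4.43 CPM (0.59, quasi-likelihood FDR 0.129). *Rora*, whose product drives *Arntl* through the RORE, was at 285, 237 and 272 CPM against 347, 477 and 327 CPM (0.54, quasi-likelihood FDR 0.0861). For all 3 the genotypes did not overlap, and YAP2-5SA-∆C replicate 2 was the highest mouse.

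At the low end, *Nfil3* (also called E4BP4), a repressor at D-boxes, was at 21.1, 25.5 and 22.4 CPM in wild type and at 16.3, 9.47 and 16.7 CPM in YAP2-5SA-∆C skin, again without overlap (log2 fold change -0.70, quasi-likelihood FDR 0.100). Without YAP2-5SA-∆C replicate 2 it was -0.46. The E-box repressor gene *Bhlhe41* was at a log2 fold change of -0.20 (quasi-likelihood FDR 0.288), and -0.09 without the same mouse. The likelihood-ratio test and DESeq2 each called 6 of the 26, beside 10.4% and 10.7% of all genes. These were *Csnk1e*, *Aqp3*, *Arntl2*, *Rora*, *Nfil3* and *Por*, a cytochrome P450 reductase gene named here after its values were seen (log2 fold change 0.48). Voom called *Csnk1e* and *Aqp3* only, beside 1.65% of all genes.

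Glucocorticoids reset peripheral clocks, and *Per1* is a direct target of their receptor, so 5 glucocorticoid-induced genes were read in the same libraries. The quasi-likelihood test called 0 of the 5, beside 1.91% of all tested genes, 1 (*Errfi1*) had an unadjusted p under 0.05, beside 26.3%, and the likelihood-ratio test, voom and DESeq2 called 0. *Tsc22d3* (also called GILZ), an anti-inflammatory leucine zipper gene, was at 60.6, 64.3 and 70.9 CPM in wild type and 37.3, 59.3 and 53.2 CPM in YAP2-5SA-∆C skin. As for *Per1*, YAP2-5SA-∆C replicate 1 was the lowest mouse and no transgenic mouse reached the wild type range, with a log2 fold change of -0.39 (quasi-likelihood FDR 0.193) that ran from -0.51 to -0.19 with 1 mouse left out. The other 4 log2 fold changes were 0.32 for *Fkbp5*, a co-chaperone of the receptor (0.15 without YAP2-5SA-∆C replicate 2, and up to 0.50 with another mouse left out), 0.0011 for *Zbtb16* (-0.08 without YAP2-5SA-∆C replicate 2, and up to 0.09 with another mouse left out), -0.15 for *Sgk1* (-0.03 without YAP2-5SA-∆C replicate 2) and -0.31 for *Errfi1*.

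Genes with the pattern most like that of *Arntl* over the 6 libraries were sought among 11605 protein-coding genes with a mean of at least 5 CPM. The highest Pearson correlations of log2 CPM were with *Fam234b* (0.976), *Spryd7* (0.975), *Mbp* (0.973), *Capn10* (0.970) and *Ppp2r3a* (0.969), and the lowest with *2310030G06Rik* (-0.995), *Cbx1* (-0.995), *Vsig10* (-0.990), *Src* (-0.990) and *Fen1* (-0.986). In all, 69 genes were above 0.9 and 143 below -0.9. Among the other 9 of the 10 clock genes, the correlation was highest for *Clock* (0.763) and *Nr1d1* (0.591), followed by *Cry2* (0.361), *Nr1d2* (0.214), *Dbp* (0.122), *Per1* (-0.071), *Per2* (-0.208), *Per3* (-0.351) and *Cry1* (-0.600). Over the wider clock list it ran from -0.915 for *Bhlhe41* to 0.788 for *Npas2*, with *Rora* at 0.676 and *Nfil3* at -0.730. The 6 libraries come from both genotypes and differ in depth and in cell type markers, and these correlations are descriptions.

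Markers of other cell types were read in the same libraries. With the quasi-likelihood test, 5 of 48 tested markers were called, *Krt14* of basal keratinocytes and *Csf1r* and *Mrc1* of macrophages as higher and *Dct* and *Tyrp1* of melanocytes as lower with the transgene, beside 1.91% of all tested genes. None of these was called on leaving out replicate 2 or 3 of wild type or replicate 3 of YAP2-5SA-∆C. Hair shaft and inner root sheath markers summed to between 11350 and 13740 CPM in wild type and between 1275 (replicate 2) and 7791 CPM in YAP2-5SA-∆C skin, and melanocyte markers to 407 to 477 CPM against 151 to 261 CPM. Basal keratinocyte markers summed to 3254 to 3832 CPM against 5316 to 6851 CPM, suprabasal to 3372 to 4076 CPM against 4351 to 8215 CPM, and macrophage markers to 383 to 456 CPM against 567 to 626 CPM.

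Fibroblast markers overlapped between genotypes (9431 to 12780 against 12230 to 15900 CPM), as did T cell (52.9 to 83.1 against 78.5 to 120 CPM) and adipocyte markers (621 to 868 against 543 to 899 CPM). Most of the T cell sum was *Thy1*, which dermal fibroblasts also express, at 48.8 to 77.4 against 73.7 to 113 CPM. Endothelial markers were at 95.9 to 114.5 against 114.9 to 138 CPM. Skeletal muscle markers varied widely within wild type, from 1035 CPM in replicate 1 to 5509 CPM in replicate 2, against 934 to 2640 CPM in YAP2-5SA-∆C skin. No marker with a row in the table was at 0 in any library, so the markers of skin were present throughout, and muscle was present in all 6 samples. The part of these marker levels in the clock values was not tested.

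**Figure D5:**
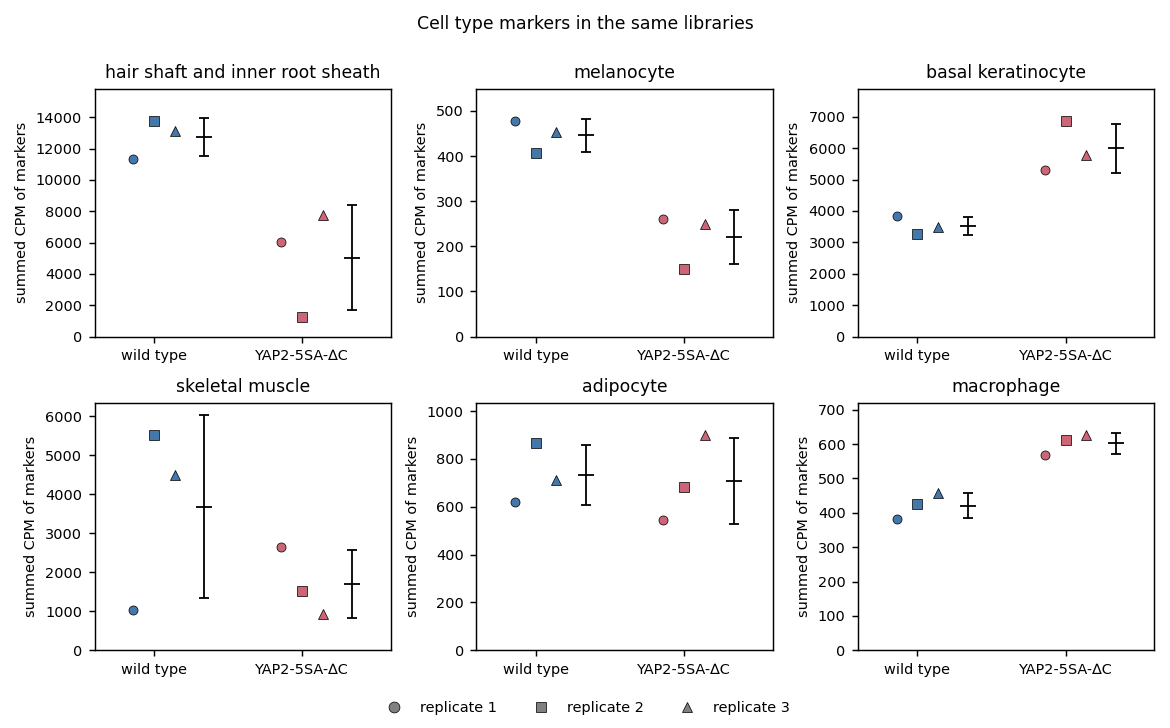
Summed TMM-scaled CPM (y axis, from 0) of the markers of 6 cell types in each mouse, with mean ± SD (n = 3) beside the points. Hair and melanocyte markers are lower and basal keratinocyte and macrophage markers higher in all 3 YAP2-5SA-∆C mice, hair markers are lowest in YAP2-5SA-∆C replicate 2 (1275 CPM), and muscle and adipocyte markers overlap.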

How the data were processed

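Skin RNA of 3 wild type and 3 YAP2-5SA-∆C mice was sequenced as paired-end reads on an Illumina NextSeq 500. The labels name a TruSeq Stranded Total RNA kit and mRNA libraries. The deposited values are raw counts for each Ensembl gene. The submitters' processing notes name TopHat2 2.0.12, Bowtie2 2.1.0, HTSeq and GRCm38. Strand setting and annotation release are not given in the sources used here.

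The 10 genes and every list were chosen with earlier results of these data known. Identifiers were named from GENCODE M21 (558 of 26579 were absent from it). Genes that reached 1 CPM in 3 or more libraries (15102) were scaled by TMM and tested for genotype with edgeR 4.0.16 (glmQLFit with its bias-adjusted form, glmQLFTest; Benjamini-Hochberg over all tested genes, threshold 0.05) in R 4.3.3. Alternatives were edgeR's likelihood-ratio test, limma 3.58.1 voom, DESeq2 1.42.0, other scalings and filters, a replicate block, trended dispersion (added after seeing the data) and each mouse left out. The step was tested on simulated data. Log2 CPM used a prior count of 2. Total counts were 11225705 to 19505036, and p-values set the genotype difference against the spread between mice. Replicate libraries of a genotype all differed beyond counting noise.

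All 10 genes were named in full. Of the other lists, each gene past the threshold was named, and otherwise the 3 highest and 3 lowest log2 fold changes, and for *Arntl* the 5 most and 5 least alike genes. The lists cover paralogs of the activators, RORs, PAR bZIP factors, DEC and CHRONO repressors, kinases, ubiquitin enzymes, rhythmic output genes, glucocorticoid-induced genes and 10 cell types. *Flg* and *Krt85* were not analysed here, and 1 gene that the rule names is not reported here.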

Additional observations from a re-analysis of the deposited data

How the results depend on the processing

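Over the 10 clock genes and 16 alternatives, 155 of 160 log2 fold changes kept their sign and side of the threshold, 1 (*Clock*, DESeq2) passed it and 4 changed sign. With 3 mice per genotype, differences anywhere inside the 95% intervals remained possible. Genes called (288) became 1568 with the likelihood-ratio test, 1590 with DESeq2, 497 without the low-count filter, and 0 to 817 with 1 mouse left out (0 without wild type replicate 2 or 3 or YAP2-5SA-∆C replicate 3, 817 without YAP2-5SA-∆C replicate 2). Clock genes called (0) became 1 with DESeq2. Other clock genes called (2) became 6 and markers called (5) became 16 with the likelihood-ratio test and with DESeq2. With 1 mouse left out these counts were 0 to 2 and 0 to 15, both 0 without the same 3 mice as above, and 15 markers without YAP2-5SA-∆C replicate 2. The 2 clock genes without overlap became 2 to 5, namely 4 without wild type replicate 2 (41% of all tested genes in those mice) and 5 without YAP2-5SA-∆C replicate 3 (45.4%). With replicate number as a block, 0 genes, 0 clock genes, 0 other clock genes and 0 markers were called (2949 genes had an unadjusted p under 0.05). Mice with the same number did not deviate together (correlations -0.33, -0.23 and -0.05). Whether the number pairs mice by litter or batch cannot be told from 3 mice per genotype. The activator gap of 0.42 was 0.16 for *Arntl* minus *Dbp*. Of the 10 genes named for likeness to *Arntl*, 3 remained when deviations from the genotype means were used. With 1 mouse left out, log2 fold changes ran across 0 for *Per3* (-0.0914 to 0.1087), *Dbp* (-0.0355 to 0.1626), *Csnk1d* (-0.0266 to 0.0375), *Gsk3b* (-0.0931 to 0.0082), *Btrc* (-0.006 to 0.0602), *Fbxw11* (-0.0194 to 0.0246), *Zbtb16* (-0.0751 to 0.0932) and *Klf9* (-0.2551 to 0.0592). *Fbxw11* also turned, to 0.0013 (DESeq2), 0.0025 (RLE), 0.0135 (upper quartile), 0.0036 (no filter) and 0.0003 (library size without mitochondrial genes and 1 further gene). The cause of these changes was not tested.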
